A study of Caenorhabditis elegans with 2 samples.

Results

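The 7 genes described here are sox-2, sem-4, egl-27, sox-3, jmjd-3.1, wdr-5.1 and set-2 of Caenorhabditis elegans. All but sox-3 have been linked by earlier genetic work to the Y-to-PDA conversion, and sox-3 was taken as the paralogue of sox-2. The 7 genes were taken by name, out of 19973 nuclear protein-coding genes, and all 7 were found in the annotation. For each gene every region of the deposited lists was taken whose summit lay between 5000 bp upstream and 5000 bp downstream of the gene. This gave 71 of the 30000 regions of the pooled list, 67 regions of replicate 1 and 65 of replicate 2. The lists come from chromatin immunoprecipitation and sequencing (ChIP-seq) of CEH-6, a POU homeodomain transcription factor, through a GFP tag. The samples are biological replicates 1 and 2 of a single group of late embryos, whole animals of both sexes collected by egg bleaching, and the age written on the labels is 3.3 hours. The worms were of strain OP748, which carries the transgene ceh-6::TY1 EGFP 3xFLAG, which adds the tag at the C-terminal end, with unc-119(+) in an unc-119 mutant (ed3) of VC2010. Nothing in the labels limits the tag to a cell type, and 1 transgenic line was used. No untagged or mock-treated embryos were analysed here. With 1 group there is no comparison between conditions, so the values below are descriptions without a test.

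In the hermaphrodite the Y cell is an epithelial cell of the rectum that leaves the rectum in the larva, loses its epithelial identity and becomes the motor neuron PDA. The conversion is a well-known case of natural transdifferentiation. Its start needs CEH-6 together with the SOX factor SOX-2, the Spalt-like zinc finger protein SEM-4 and EGL-27, a relative of the MTA proteins of the NuRD complex. The H3K27 demethylase JMJD-3.1 and the H3K4 methyltransferase SET-2 with its partner WDR-5.1 are needed for it to be robust. SOX-3 is the other SOXB factor of the worm. The conversion takes place in larvae, and the samples are embryos in which CEH-6 is present in several other cells.

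Of the 7 genes, egl-27 and sox-2 each had a peak in the stringent set. That set holds regions kept by the irreproducible discovery rate (IDR), a measure of how well replicates rank the same regions. Among all nuclear protein-coding genes 8.76% had such a peak in the same window. Leaving out IDR peaks within 100 bp of a gene of a tRNA, snoRNA, snRNA, rRNA or miRNA left the count at 2 of 7, and 5.61% of all genes. Windows grow with the gene. In the 496 genes whose window was within 10% of the length of that of egl-27, 11.1% had an IDR peak, and in the 2647 genes like sox-2 in this respect it was 12.1%. The remaining 5 genes had only weaker regions of the relaxed lists, which are deep lists that hold background as well as peaks.

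The sequence at the strongest regions is shown first, since neither IDR peak lies in front of its gene and neither holds the octamer ATGCAAAT that POU proteins are known to bind. Each run covers the 201 bases around the summit of the pooled list, on the strand of the named gene and 5' to 3', from the RefSeq copy of assembly WBcel235, which ce11 also names. Capitals mark the summit base and any match, on either strand, to the repeats CACACACA and GAGAGAGA, to the SOX motif ACAATG or to the octamer with at most 1 mismatch. The runs are the IDR peaks of sox-2 and egl-27, the strongest region in front of egl-27, and the strongest regions of jmjd-3.1 and sox-3.

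sox-2, chrX:7457682-7457882, minus strand: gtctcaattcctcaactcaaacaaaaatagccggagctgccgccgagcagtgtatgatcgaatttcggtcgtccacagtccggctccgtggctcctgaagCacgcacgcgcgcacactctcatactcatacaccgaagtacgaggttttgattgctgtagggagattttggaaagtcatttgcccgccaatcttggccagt
egl-27, coding exon, chrII:6846808-6847008, plus strand: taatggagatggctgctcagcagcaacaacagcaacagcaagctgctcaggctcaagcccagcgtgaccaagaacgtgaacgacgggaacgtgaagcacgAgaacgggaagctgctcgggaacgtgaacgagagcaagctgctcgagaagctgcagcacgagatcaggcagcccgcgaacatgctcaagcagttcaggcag
egl-27, upstream, chrII:6834671-6834871, plus strand: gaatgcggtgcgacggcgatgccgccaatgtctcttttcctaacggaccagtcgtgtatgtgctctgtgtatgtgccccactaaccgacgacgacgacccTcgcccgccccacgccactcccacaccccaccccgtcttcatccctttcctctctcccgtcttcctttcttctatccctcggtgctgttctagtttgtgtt
jmjd-3.1, chrX:8569380-8569580, plus strand: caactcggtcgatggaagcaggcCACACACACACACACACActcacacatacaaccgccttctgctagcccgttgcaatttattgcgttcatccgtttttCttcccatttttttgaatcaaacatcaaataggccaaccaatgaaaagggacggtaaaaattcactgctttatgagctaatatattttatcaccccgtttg
sox-3, chrX:14694754-14694954, minus strand: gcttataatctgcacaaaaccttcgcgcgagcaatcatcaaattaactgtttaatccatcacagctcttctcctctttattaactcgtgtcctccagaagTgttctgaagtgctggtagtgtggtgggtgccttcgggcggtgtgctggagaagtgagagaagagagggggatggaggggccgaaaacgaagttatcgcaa

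sox-2 encodes the SOXB factor that works with CEH-6 in the Y cell (X, 7458280 to 7463736, minus strand). Its window held 12 regions of the pooled list, with signals between 29.5 and 121 and a median of 49.4. The signal is the value that the authors' caller gave each region relative to a control, on a scale that is not stated, and serves here to rank regions within a list. The IDR peak (X, 7457577 to 7457986) had a signal of 121 and rank 541 in the pooled list. In replicate 1 the region at this place had a signal of 52.0 and rank 558, and in replicate 2 a signal of 70.6 and rank 635. The summits of the replicates lay 15 and 8 bp from the pooled summit, so both replicates place the peak at the same spot and at a similar rank.

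This peak is downstream of sox-2 rather than in front of it. Its summit lay 498 bp beyond the 3' end of the gene and 1970 bp from the nearest of the annotated sox-2 transcript starts, which belongs to a short transcript. It fell inside K08A8.31, an annotated non-coding RNA gene on the same strand. The next protein-coding gene on that side, acl-12, lay 15205 bp away. On the other side, beyond sox-2, coh-1, a cohesin subunit gene, lay 7411 bp from the summit. No gene of a tRNA, snoRNA, snRNA, rRNA or miRNA lay within 100 bp of the summit of any of the 71 pooled regions.

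Upstream of sox-2 the strongest regions were at the end of the window and inside coh-1. One (X, 7467493 to 7467902) had a signal of 70.1 and rank 2610, 3962 bp upstream of sox-2 and in an intron of coh-1. It ranked 959 in replicate 2 and had no region over its summit in replicate 1. Another (X, 7466727 to 7467136) had a signal of 67.5 and rank 3023, also in an intron of coh-1. Its rank was 1412 in replicate 1 and 4713 in replicate 2. Of the pooled regions upstream of sox-2, the closest to it (X, 7464262 to 7464671) lay at 731 bp, with a signal of 55.1 and rank 6119. It ranked 5571 in replicate 2 and was covered by no region of replicate 1. Inside sox-2 itself the strongest region ranked 8909, so the rank of this gene rests on the downstream peak.

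egl-27 encodes the MTA-like protein (II, 6835008 to 6847908, plus strand) and had both the strongest region and the most regions of the 7 genes. Its window held 20 pooled regions, with signals between 30.3 and 155 and a median of 55.5. The IDR peak (II, 6846703 to 6847112) had a signal of 155 and rank 363. It had a signal of 51.9 and rank 559 in replicate 1, and a signal of 98.3 and rank 326 in replicate 2, with summits 35 and 1 bp from the pooled one. Replicate 2 placed it higher than replicate 1, and both were inside their 741 top regions, the size of the IDR set.

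The summit of the egl-27 peak is in a coding exon near the 3' end of the gene. It lay 1533 bp downstream of the nearest of the annotated egl-27 starts and 1216 bp upstream of the start of tbc-6, a gene of the TBC domain family on the same strand. A rule that gives each peak to the gene with the nearest transcript start therefore gave it to tbc-6. Few peaks were in coding sequence: 22 of the 718 nuclear IDR summits (3.06%) lay in a coding exon of any gene. The sequence above is rich in short repeated units, of the type cagcaa and cgtgaacg. Each of its 166 overlapping 36-mers occurred only once in the genome, and whether the repeated units bear on the peak was not tested. A weaker region beside it (II, 6846925 to 6847334) had a signal of 62.8 and rank 3903, with rank 6905 in replicate 1 and 1142 in replicate 2.

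The IDR peaks reached down to a signal of 106, and the regions in front of egl-27 were below that. The strongest of these (II, 6834566 to 6834975), 237 bp upstream of the gene, had a signal of 97.6 and rank 902. It ranked 1017 in replicate 1 and 1776 in replicate 2, with summits 6 and 5 bp from the pooled one. Further upstream lay a region of signal 87.2 and rank 1267, at 3073 bp, and a region of signal 80.6 and rank 1616, at 959 bp. The replicates were uneven at both, with ranks 3843 and 964 in replicates 1 and 2 for the region at 3073 bp and ranks 19027 and 1031 for that at 959 bp. Inside introns a region of signal 93.5 ranked 1022 and a region of signal 84.4 ranked 1401. The rank 1401 region was at ranks 1578 and 2668 in replicates 1 and 2. The region of rank 1022 lay 348 bp downstream of an internal egl-27 start and had rank 1444 in replicate 2. In replicate 1 its summit was covered by a region of rank 13128, whose summit was the nearest, and by a stronger one of rank 1529 (II, 6842372 to 6842767). Altogether the egl-27 window held 5 regions among the 1500 strongest of the pooled list. Only 3 of 19973 genes (0.0150%) had at least 5, and the others were lit-1 and Y111B2A.12, named after their counts were seen. The windows of egl-27, lit-1 and Y111B2A.12 were 22901, 32414 and 24452 bp long. The count for egl-27 was 2 in the list of replicate 1, where 2.79% of all genes had at least as many, and 5 in that of replicate 2, where 6 of all genes did.

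**Figure D1:**
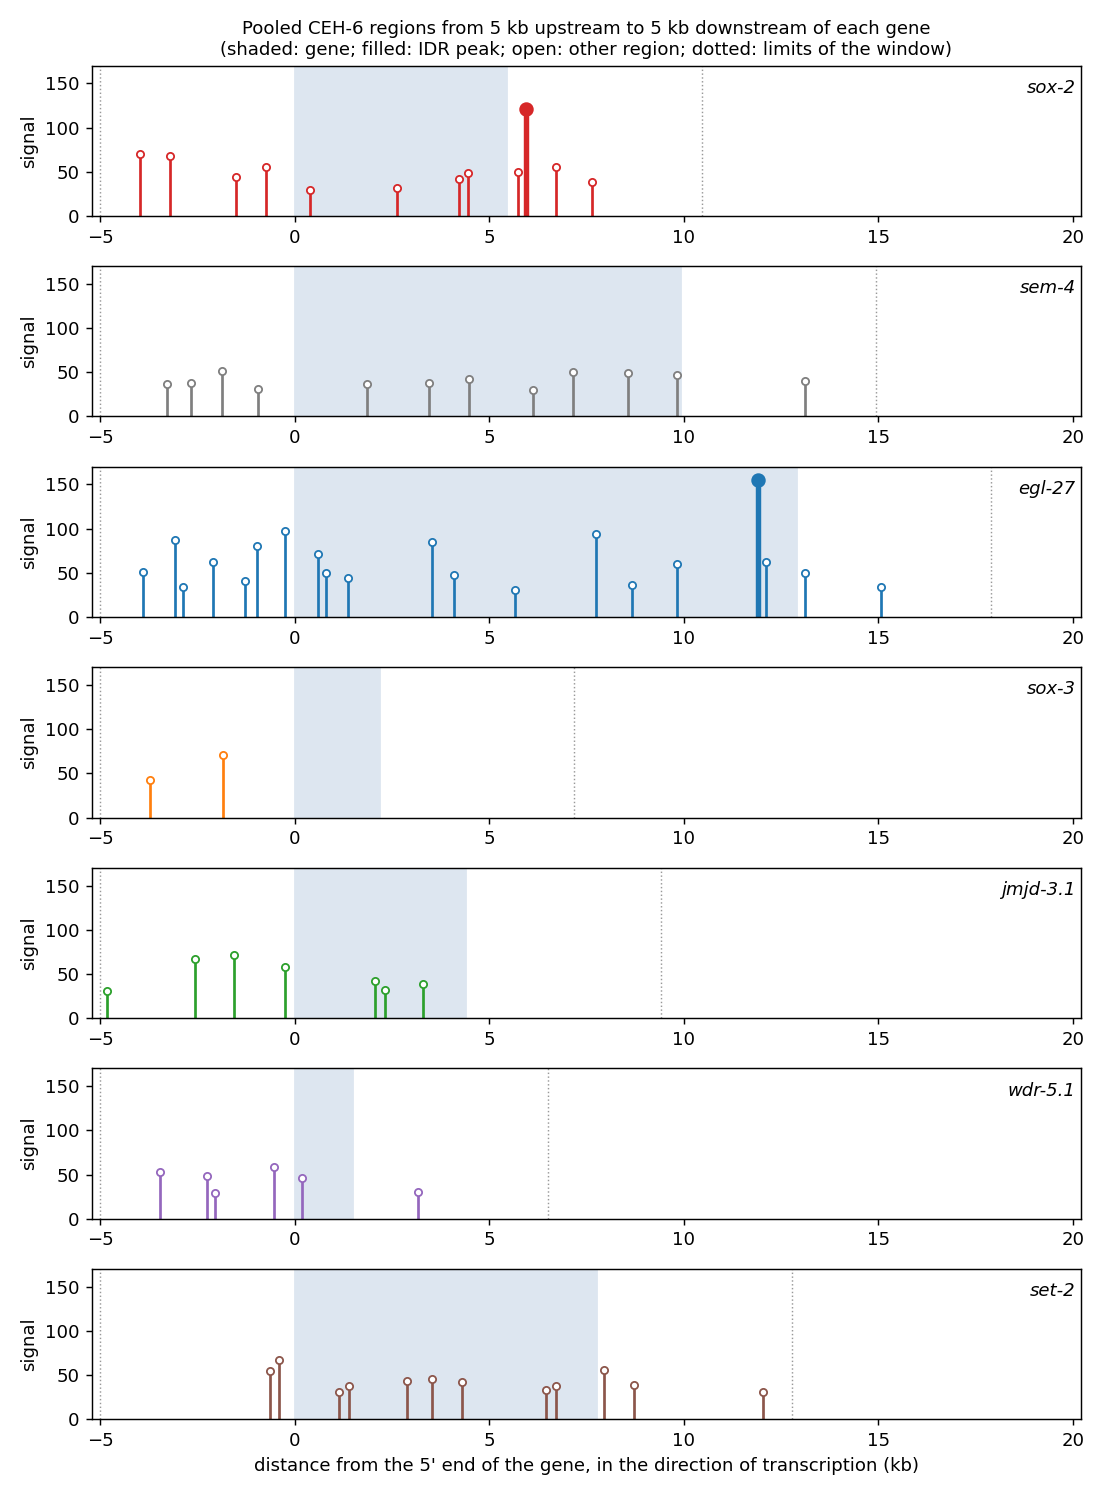
Signal of each pooled CEH-6 region (vertical axis, caller's units) against distance from the 5' end of the gene in kb, for the 7 genes. Shading is the gene and filled symbols are IDR peaks. The peak of sox-2 (signal 121) lies just beyond the 3' end and that of egl-27 (signal 155) inside the gene near its 3' end, while no region of the other 5 genes passes a signal of 71.0.

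sem-4 encodes the Spalt-like zinc finger protein, a partner of CEH-6 in the Y cell, and had no strong region (I, 7038900 to 7048832, plus strand). Its window held 12 pooled regions, as many as that of sox-2, but their signals lay only between 30.4 and 51.4. The highest, 1855 bp upstream of the gene, had rank 7635, and 52.7% of all genes had a best region at least as strong. Its ranks were 3991 in replicate 1 and 24168 in replicate 2. Each replicate had its own strongest place. In replicate 1 it was an intronic region of signal 31.8 and rank 3073, 1921 bp downstream of the start, with no region over it in replicate 2. In replicate 2 it was another intronic region, of signal 38.1 and rank 4818, 6969 bp downstream of the start. No place in the sem-4 window was thus strong in both replicates.

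sox-3, the paralogue of sox-2 (X, 14690816 to 14693005, minus strand), had the fewest regions. The pooled list held 2 in its window, both upstream. The stronger (X, 14694649 to 14695058) had a signal of 70.3 and rank 2579, 1849 bp upstream of the start. It had a signal of 30.9 and rank 3423 in replicate 1 and a signal of 39.3 and rank 4307 in replicate 2. The other ranked 13448 and lay in an intron of hch-1, a gene of a secreted hatching protease. Both SOXB genes are on X, but the arrangement of their regions differed. The strongest region of sox-2 was downstream, and sox-3 had no pooled region inside the gene or downstream of it.

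jmjd-3.1, the gene of the H3K27 demethylase (X, 8571047 to 8575451, plus strand), had 7 pooled regions with signals between 30.2 and 71.0. The 3 strongest were all upstream, at 1567, 2564 and 249 bp from the gene. The strongest (X, 8569275 to 8569684) had a signal of 71.0 and rank 2482, with rank 4790 in replicate 1 and 3409 in replicate 2. The next, at 2564 bp, had a signal of 67.0 and rank 3103, with ranks 5288 and 3540 in replicates 1 and 2, and the one at 249 bp a signal of 57.6 and rank 5241. In replicate 1 the order was turned, and the region next to the start led with a signal of 33.1 and rank 2609. The gene that ends 6242 bp upstream of the strongest summit is utx-1, another H3K27 demethylase gene, whose own best region ranked 5117.

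The H3K4 methylation genes had weak regions at their starts. set-2, the gene of the methyltransferase (III, 4922427 to 4930204, minus strand), had 12 pooled regions with signals between 30.4 and 67.2. Its strongest (III, 4930386 to 4930795), 387 bp upstream, had rank 3068. The replicates differed there, with signal 19.3 and rank 15750 in replicate 1 and signal 42.2 and rank 3358 in replicate 2. In replicate 2 the strongest was the next region upstream, at 636 bp and inside a coding exon of C26E6.12, with rank 2994. The summit of rank 3068 is 11 bp from the 3' end of C26E6.12, the neighbouring gene on the same strand. In replicate 1 the strongest region was instead at the other end of the gene, between set-2 and mmab-1, with rank 5671 there, 5821 in the pooled list and 20294 in replicate 2. Of the 166 36-mers around that summit, 132 (79.5%) occur elsewhere in the genome too, and the treatment of such reads is not given in the sources used here. A further 7 of the set-2 regions had their summit in coding exons, with ranks no better than 10676.

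wdr-5.1, the gene of the WDR5 homologue (III, 3705285 to 3706784, plus strand), is the shortest of the 7 and sits among close neighbours. Its window held 6 pooled regions with signals between 28.9 and 58.7. The strongest (III, 3704551 to 3704960) was 529 bp upstream, in a coding exon of C14B1.3, with rank 4910 in the pooled list, 5986 in replicate 1 and 24864 in replicate 2. In replicate 2 the strongest was 3442 bp upstream, rank 3108, and 382 bp upstream of pdi-1, a protein disulfide isomerase gene that is transcribed the other way. The region inside wdr-5.1, 190 bp downstream of its start, had signal 46.4 and rank 10397.

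Ordered by the best pooled rank, the genes were egl-27 (363), sox-2 (541), jmjd-3.1 (2482), sox-3 (2579), set-2 (3068), wdr-5.1 (4910) and sem-4 (7635). A best region at least as strong was found for 4.69% of all genes in the case of egl-27, 6.77% for sox-2, 24.0% for jmjd-3.1, 24.7% for sox-3, 28.2% for set-2 and 39.7% for wdr-5.1. Among genes with a window within 10% of the same length, the share was 4.03% for egl-27, 9.44% for sox-2 and 29.3% for jmjd-3.1. It was 20.9% for sox-3, 41.1% for set-2, 33.2% for wdr-5.1 and 74.8% for sem-4. The median best rank of all genes with a region was 5797, and 2223 genes had none. Between replicates, the first places were egl-27 and sox-2 in either list, with ranks of 559 and 558 in replicate 1 and 326 and 635 in replicate 2. Their order therefore is not separated by the replicates. The other 5 lay between 2609 and 5986 in replicate 1 and between 2994 and 4818 in replicate 2, and their order changed from one replicate to the other. sem-4, last in the pooled list, came next after jmjd-3.1 in replicate 1 and was last in replicate 2.

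**Figure D2:**
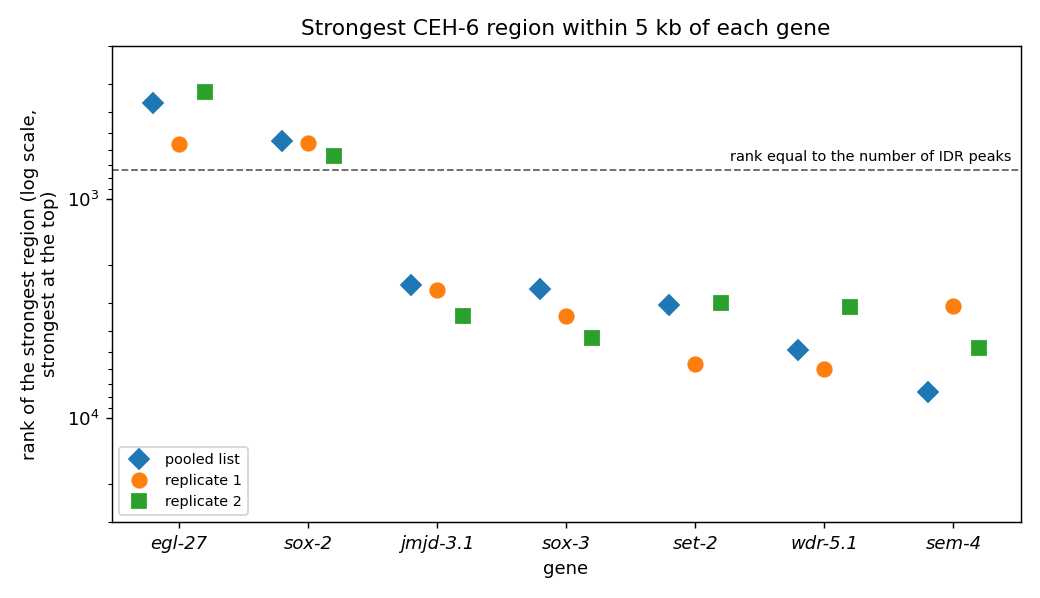
Rank of the strongest region within 5 kb of each gene (vertical axis, log scale, strongest at the top) in the pooled list, replicate 1 and replicate 2. Only egl-27 and sox-2 lie above the dashed line, drawn at the number of IDR peaks (741), in every list. The 3 ranks of the other 5 genes range from 2482 to 7635 and overlap.

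Regions were dense around most of the 7 genes, whether strong or not. egl-27 had 8.73 pooled regions per 10 kb of its window, sox-2 7.76, set-2 6.75, sem-4 6.02, wdr-5.1 5.22, jmjd-3.1 4.86 and sox-3 1.64, against a median of 2.68 over all genes (interquartile range 1.43 to 4.17). The density of egl-27 was above that of 99.4% of all genes, that of sox-2 above 98.2% and that of sox-3 above 28.5%. Among windows of similar length, 99.0% had fewer regions than egl-27, 97.3% fewer than sox-2 and 87.6% fewer than sem-4. A dense window was not always a strong one, since sem-4 had 12 regions and its best was weaker than that of most genes.

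Summed over the 7 genes, regions were more frequent in front of the genes than behind them, but not for each gene, since sox-2 had 4 on either side and set-2 2 upstream and 3 downstream. The upstream flanks of the 7 genes held 27 pooled regions (7.71 per 10 kb), the genes themselves 33 (7.47 per 10 kb) and the downstream flanks 11 (3.14 per 10 kb). Over all genes the densities were 2.95, 3.18 and 2.81 per 10 kb for the same parts. Of the regions inside the 7 genes, 18 summits were in coding exons, 14 in introns and 1 in the 3' UTR of sem-4. The same split is not given for all pooled regions, so these counts have no background beside them. Some upstream regions belong to the bodies or promoters of neighbours, such as coh-1, hch-1, C14B1.3 and C26E6.12. The split by side was not tested.

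**Figure D3:**
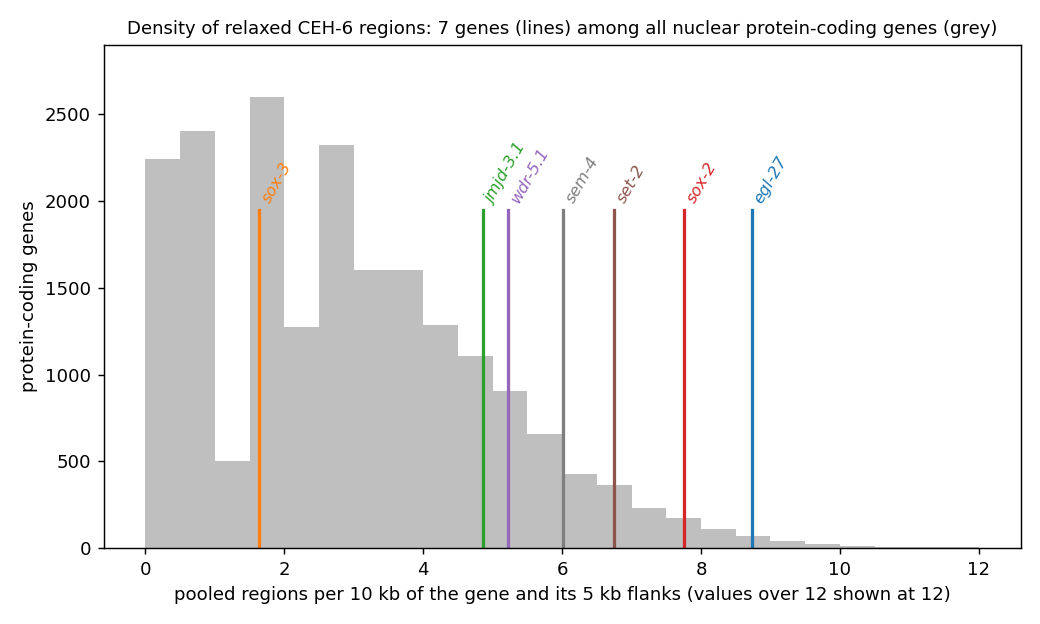
Number of nuclear protein-coding genes (vertical axis) by pooled regions per 10 kb of gene and flanks. The lines mark the 7 genes. sox-3 (1.64) lies below the median of 2.68 and the other 6 above it, with egl-27 (8.73) furthest out.

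The replicates shared most of these regions, but many at unlike ranks. Of the 71 pooled regions, 42 (59.2%) had their summit inside a region of each replicate, against 42.5% of all nuclear pooled regions. Another 25 were covered in a single replicate and 4 in neither. The 71 regions had a median signal of 46.4, against 40.4 over the whole pooled list, and the shares were not matched for strength. egl-27 had 15 of its 20 regions in both, sox-2 7 of 12, and sem-4 5 of 12. Among the 42, the summits differed from the pooled ones by a median of 22.5 bp in replicate 1 and 10 bp in replicate 2, and by 202 bp at most. With the replicate region of nearest summit, 5 were among the 3000 strongest of both replicates: the sox-2 peak and 4 regions of egl-27, which have pooled ranks 363, 902, 1401 and 2489. With the strongest replicate region over the summit it was 6, the egl-27 region of rank 1022 being added. The share of all pooled regions that pass was not computed, so neither count is set against a background. The pooled list was made from the reads of both replicates, so its overlap with each is not independent. A single replicate region can also cover several pooled summits, as in egl-27, where the regions of rank 1267 and 22106 share theirs. The egl-27 region of rank 2489, counted above, shares its replicate 1 region, of rank 2702, with the pooled region of rank 8401. That replicate summit lay 133 bp from the pooled summit of rank 2489 and 71 bp from that of rank 8401.

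**Figure D4:**
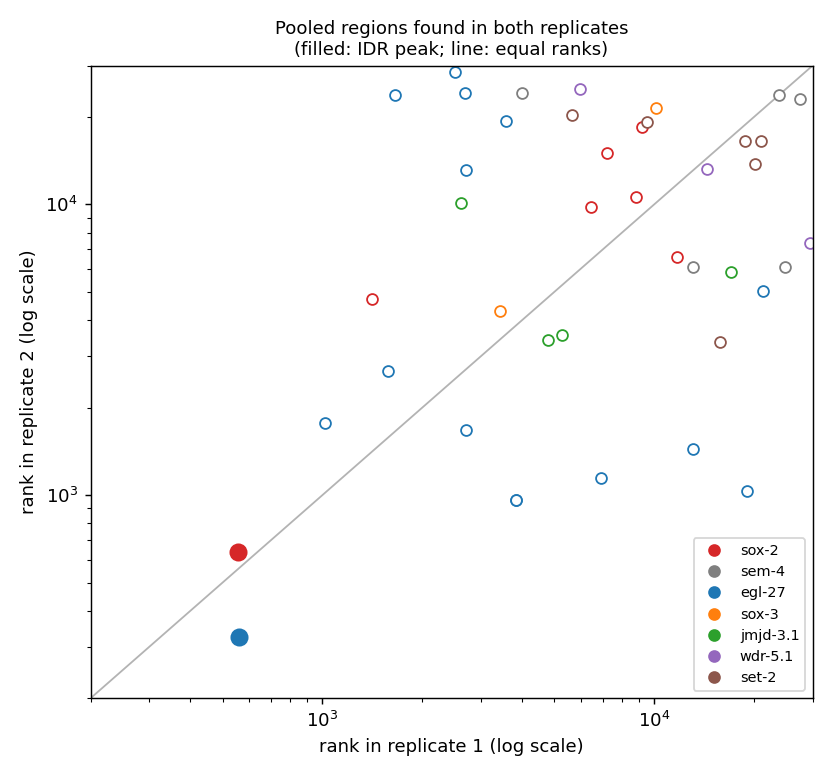
Rank in replicate 2 against rank in replicate 1, both on log scales, for the 42 pooled regions found in both replicates, by gene, taking the replicate region of nearest summit. The IDR peaks of sox-2 (558 and 635) and egl-27 (559 and 326) sit together at the strong end, and many of the other regions lie far from the line of equal ranks.

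None of the 71 pooled regions had the POU octamer ATGCAAAT on either strand within 100 bp of the summit. The share over all nuclear pooled regions was 1.84%. With 1 mismatch allowed, 14 of the 71 (19.7%) had a match, against 27.6% of all. Neither IDR peak was among the 14, and sox-2 had no such match at any of its 12 pooled regions. The SOX motif ACAATG was within 100 bp of 8 of the 71 summits (11.3%) and of 11.1% of all, again at neither IDR peak nor at any pooled sox-2 region. At the summits of the replicates' own lists sox-2 did have matches, as at a region of replicate 1 of rank 18256, 506 bp upstream, with both motifs. Both a SOX motif and an octamer with 1 mismatch were found at 4 of the 71 regions. They were set-2 rank 3068, egl-27 rank 4527, sox-3 rank 13448 and wdr-5.1 rank 28377. The share of all nuclear pooled regions with both was not computed, so this count has no background beside it.

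The windows of the genes do contain exact octamers, away from the summits. The density per 10 kb was 1.29 in the window of sox-2, 1.12 in that of set-2, 0.87 in that of wdr-5.1, 0.502 in that of sem-4 and 0.437 in that of egl-27, against 0.914 in the nuclear genome. The window of sox-3 had none. An octamer inside a pooled region was intronic in egl-27, 109 bp from the summit of the rank 4527 region. Some of the octamers are printed with 11 bases to each side, on the strand that reads ATGCAAAT, in capitals. The bases beside them were not compared.

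sox-2, chrX:7465806-7465813, plus strand, 2074 bp upstream: attgagagaaaATGCAAATgagcatcaatt
sox-2, chrX:7466314-7466321, plus strand, 2582 bp upstream: agtgtaattttATGCAAATtagatcgtgtt
egl-27, chrII:6844949-6844956, minus strand, intron: atagagaaagtATGCAAATtcgaaaacgga
jmjd-3.1, chrX:8568254-8568261, minus strand, 2789 bp upstream: gtactccattaATGCAAATgttgcactgtg
wdr-5.1, chrIII:3706449-3706456, plus strand, intron: ataaaataaaaATGCAAATttaaatttttt
set-2, chrIII:4927902-4927909, minus strand, coding exon: tggatcgaaaaATGCAAATggggacgttgt
set-2, chrIII:4930278-4930285, plus strand, 78 bp upstream: attagaagctaATGCAAATcaaaactcggg

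The octamer 78 bp upstream of set-2 lay 309 bp from the summit of the rank 3068 region and the printed one of jmjd-3.1 lay 225 bp from that of the rank 3103 region. No match within a window says nothing about binding elsewhere or through another protein.

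Dinucleotide repeats were present at some of the regions. CACACACA lay within 100 bp of 5 of the 71 summits (7.04%), against 3.23% of all nuclear pooled regions, and GAGAGAGA within 100 bp of 4 (5.63%), against 3.67%. Both motifs were read on either strand. The jmjd-3.1 region of rank 2482, printed above, held 6 overlapping copies of CACACACA. The egl-27 region of rank 1616 held both repeats, that of rank 1401 CACACACA and that of rank 1022 GAGAGAGA. The IDR peaks of sox-2 and egl-27 held neither.

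Related genes, from lists compiled for the pathways of the 7 genes, are given by the same window, in which 8.76% of all genes had an IDR peak and the median best rank was 5797. Of 6 other genes of the Y-to-PDA conversion, ceh-6 alone had IDR peaks, the strongest at rank 273, where the transgene also holds ceh-6 sequence. The terminal selector gene unc-3 had a best rank of 2533, the Hox gene egl-5 1727 and the bHLH genes ngn-1 and hlh-16 2934 and 3424. The Notch receptor gene lin-12 had a best rank of 4968. These genes, like the others of the lists without an IDR peak, were named after their values were seen. The best regions of hlh-16 and lin-12 lay 4822 and 2504 bp downstream of the gene, nearest to the starts of lmn-1 and gst-1. Of 8 genes found of the SET1 and MLL complexes, only set-16, the MLL-type methyltransferase gene, had an IDR peak (III, 13643543 to 13643952, signal 158, rank 346, 168 bp upstream of the gene). Its ranks were 1376 in replicate 1 and 272 in replicate 2. Of 7 H3K27 demethylase and PRC2 genes only jmjd-3.3 did (rank 717), and that summit was within 100 bp of a tRNA gene.

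Of 8 genes of the NuRD and MTA list 3 had an IDR peak, namely egl-27, mep-1 and chd-3. The peak of mep-1, a zinc finger gene (IV, 11524238 to 11524647, signal 108, rank 704), was 199 bp upstream and ranked 846 and 774 in replicates 1 and 2. That of the chromatin remodeller gene chd-3 (rank 642) was within 100 bp of a tRNA gene, 2718 bp downstream of chd-3. lin-40, the other MTA gene, had a best rank of 3537. The median best rank was 957.5 over this list, 2733.5 over the other Y-to-PDA genes, 4234.5 over the SET1 and MLL genes and 2554 over the H3K27 genes. In the SOX and TCF list only sox-2 had an IDR peak among 6 genes, with a median best rank of 1634.5. The TCF gene pop-1 missed narrowly at rank 748, with 1339 and 878 in replicates 1 and 2, 779 bp downstream of the gene. Lists share members and neighbouring genes share regions. Several best regions lay nearest to the start of another gene, as that of lin-40 did to nrsn-1. These counts and medians therefore describe the lists only.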

How the data were processed

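CEH-6 ChIP-seq was analysed from lists of regions in 2 biological replicates of 1 group, taken from the labels. According to notes deposited beside the lists, the authors made a relaxed list per replicate, a relaxed list from both together and an IDR set, each against 1 control on assembly ce11. The signal of each region is the authors' deposited value. The sources used here do not name the aligner, the peak caller or how reads with several places were handled. No read counts are in the lists, so depth is unknown. The summit offset is the authors' column.

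Regions were ranked by signal within a list. Annotation was Ensembl release 115 (WBcel235), and sequence was the RefSeq copy of that assembly. A replicate region covered a pooled one if it held its summit, and the nearest summit was taken. Motifs were searched within 100 bp of the summit on both strands. Python 3.11.15 and pandas 2.3.3 were used, and the window and motif searches were tested on simulated data. The genes, lists and motifs were chosen with earlier results of these data known. Repeats and 36-mers were added after the values were seen. Genes named in the text are the 7 members, genes at or next to their strongest regions, and related genes; those of the lists without an IDR peak were named after their values were seen. The symbol wdr-82 was not matched. Alternatives were other flanks, thresholds, single replicates, overlap, nearest-start assignment and other motif windows. Some sequence matches are not reported here.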

Additional observations from a re-analysis of the deposited data

How the results depend on the processing

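The 2 genes with an IDR peak, sox-2 and egl-27, were the same genes with flanks of 2000 or 1000 bp, with the top 1500 regions, with any overlap of the region, without regions near small RNA genes (chosen after seeing the data), and on the 741 top regions of replicate 1 or 2 alone (2 and 2). The count was 1 inside the gene alone and 1 with the top 370 regions (egl-27 in both). With assignment to the nearest transcript start it was 1 (sox-2). It was 4 with the top 3000 regions, which added sox-3 and jmjd-3.1. Of all genes, 15.8% had at least 1 region in the top 1500 and 27.7% at least 1 in the top 3000. For the other flanks, the top 370 regions, overlap, single replicates and the nearest start, no share of all genes is given. The 71 regions became 46 with flanks of 1000 bp and 33 inside the genes, as fewer bases are searched, and 65 to 67 on a single replicate. The count of regions with an octamer, 0 as reported and 0 on either replicate alone, was 3 with 250 bp to each side, 1 over whole regions and 14 with 1 mismatch. No share of all pooled regions is given for 250 bp or whole regions, so those counts have no background beside them. Inside the gene alone the best rank of sox-2 was 8909. No paired analysis was possible because there is 1 group and no test. Unknown depth leaves the weak regions without an error, and a region missing from a list may lie below its limit of 30000 regions. The counts of egl-27 regions in each replicate's top 1500 and of regions by the strongest replicate region were also chosen after seeing the data.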
